A study of Homo sapiens with 16 samples.

Results

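Promoter marks at 10 genes of the epithelial to mesenchymal transition were compared between 2 human breast cell lines. The 10 genes are the transcription factors SNAI1, SNAI2, TWIST1, TWIST2, ZEB1 and ZEB2 and the mesenchymal genes VIM, FN1, AXL and SPARC. They were listed by name, and all peaks that overlapped the 5 kb on either side of their hg19 gene starts were taken. This gave 44 of the 192665 peaks that 12 deposited lists held on chromosomes 1 to 22 and X, of which 39 were H3K4me3 peaks, 5 were H3K27me3 peaks and none were H3K9me2 peaks. The cultures, for which the labels name no treatment, were MCF-10A, a non-tumorigenic breast epithelial line that the labels call luminal ductal, grown in medium with hydrocortisone, cholera toxin, insulin and EGF, and MDA-MB-231, a breast cancer line from a metastatic site. Chromatin immunoprecipitation and sequencing was done with 2 biological replicates per mark and line. The labels do not say whether these were separate cultures, so the spread between them may be technical. The 4 input samples were not analysed here. Each group is 1 established line, so a difference between the groups is a difference between these lines as they were cultured. No medium is named here for MDA-MB-231, and line and culture medium cannot be told apart.

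In the epithelial to mesenchymal transition, epithelial cells lose junctions and polarity and gain motility, a programme used in development and wound healing and studied in invasive carcinoma. SNAIL, TWIST and ZEB family factors drive it, in part by repressing epithelial genes, while vimentin, fibronectin, the receptor AXL and the matrix protein SPARC are among its mesenchymal products. H3K4me3 marks active and poised promoters, H3K27me3 is the mark of Polycomb repression, while H3K9me2 lies over silent chromatin.

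Promoter sequences are shown for TWIST2, AXL and VIM, whose starts lay inside an H3K4me3 peak in both libraries of 1 line and in neither of the other, and for SPARC, which had no peak in any window. TWIST1 had the same pattern as TWIST2. They are the 250 bases before the gene start in RefSeq on GRCh38.p14, printed 5′ to 3′ on the gene's strand, with each CpG in capitals. The table used held 7 of the 10 genes, all but SNAI1, SNAI2 and TWIST1. The peaks are on hg19, and these windows were not tied to hg19 positions. TWIST2 lies at chr2:238847835-238848084 (plus strand), AXL at chr19:41218973-41219222 for the start that lies upstream and chr19:41226505-41226754 for the downstream start (plus strand), VIM at chr10:17227991-17228240 (plus strand) and SPARC at chr5:151686916-151687165 (minus strand).
TWIST2: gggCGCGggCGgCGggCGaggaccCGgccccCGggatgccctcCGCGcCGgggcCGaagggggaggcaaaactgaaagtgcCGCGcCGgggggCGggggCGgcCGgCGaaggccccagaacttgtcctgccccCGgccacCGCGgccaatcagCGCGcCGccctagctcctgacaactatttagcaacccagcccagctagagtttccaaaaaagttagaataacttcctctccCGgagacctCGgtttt
AXL upstream start: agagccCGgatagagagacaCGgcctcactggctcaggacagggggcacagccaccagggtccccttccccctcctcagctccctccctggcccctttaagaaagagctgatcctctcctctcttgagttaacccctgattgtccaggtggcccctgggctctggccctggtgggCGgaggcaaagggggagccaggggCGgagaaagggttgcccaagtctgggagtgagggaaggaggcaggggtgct
AXL downstream start: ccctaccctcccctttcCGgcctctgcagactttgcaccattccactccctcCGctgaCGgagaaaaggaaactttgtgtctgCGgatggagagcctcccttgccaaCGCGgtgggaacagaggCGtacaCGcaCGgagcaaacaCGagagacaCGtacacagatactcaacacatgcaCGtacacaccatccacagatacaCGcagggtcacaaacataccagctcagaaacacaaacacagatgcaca
VIM: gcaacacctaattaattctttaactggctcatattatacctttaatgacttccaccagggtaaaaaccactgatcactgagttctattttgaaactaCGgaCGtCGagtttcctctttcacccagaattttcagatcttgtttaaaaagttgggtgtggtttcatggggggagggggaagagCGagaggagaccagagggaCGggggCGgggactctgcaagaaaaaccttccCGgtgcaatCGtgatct
SPARC: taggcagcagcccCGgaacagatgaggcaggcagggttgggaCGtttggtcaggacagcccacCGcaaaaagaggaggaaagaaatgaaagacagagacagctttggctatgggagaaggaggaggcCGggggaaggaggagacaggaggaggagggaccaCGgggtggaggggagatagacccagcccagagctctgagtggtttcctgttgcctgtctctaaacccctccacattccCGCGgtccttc

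CpG density differed widely among these windows. TWIST2 held 26 CpGs and FN1 held 32, against a median of 11 over the 35116 promoters of the table. ZEB2 held 12, VIM 8 and SPARC 7. The upstream AXL start held 4 CpGs, an observed to expected CpG ratio of 0.155, and the downstream start held 13, a ratio of 0.744. The motif CAGGTG (reverse complement CACCTG), the E-box that SNAIL and ZEB proteins are known to bind, occurred once before the upstream AXL start. It was also found before 2 of the 7 ZEB1 starts in the table, and not in the windows of TWIST2, ZEB2, VIM, FN1 or SPARC or before the downstream AXL start. Over all promoters 17.5% held it. TATAAA was in none of these windows and in 10.7% of all promoters. A match of letters is a description of sequence and not of binding.

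The lists hold no read counts, so the depth behind each peak is unknown. H3K4me3 lists were alike in length, with 15568 to 16776 peaks. For H3K27me3, MCF-10A had 28896 and 28955 peaks, whereas MDA-MB-231 had 8470 and 30496, so that MDA-MB-231 replicate 1 stood apart as a short list. For H3K9me2 there were 8885 and 10656 peaks in MCF-10A, against 5045 and 6147. Each peak carries a score by the authors, of unstated scale and at least 50. It is used here to rank peaks within a list and, as an alternative setting, as a minimum of 100 in all lists. That minimum kept 26.1% and 25.4% of the H3K27me3 peaks in MCF-10A, and 8.43% and 23.3% in MDA-MB-231. In bulk cultures a mark present in fewer cells and a weaker mark in every cell cannot be told apart.

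H3K4me3 sorted the 10 genes into 4 patterns. Windows are the 10 kb centred on each gene start. AXL was marked in each MDA-MB-231 library but in neither MCF-10A library. TWIST1 and TWIST2 had it in both MCF-10A libraries and in neither MDA-MB-231 library. SNAI1, SNAI2, ZEB1, ZEB2, VIM and FN1 had it in all 4 libraries, and SPARC had it in none. ZEB2 left the group marked in all 4 with windows of 2 kb on either side, and FN1 left it with a score of at least 100 or with at least 500 bp covered. Among 10 kb windows centred on the 18048 merged H3K4me3 regions of the genome, 5.76% were marked in both MDA-MB-231 libraries only, 5.4% in both MCF-10A libraries only and 74.2% in all 4. All of these windows hold an H3K4me3 peak by construction, whereas the members' windows are centred on gene starts and that of SPARC holds none. The members' counts of 1, 2 and 6 of 10 rest on few genes, and no test of them was made.

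**Figure D1:**
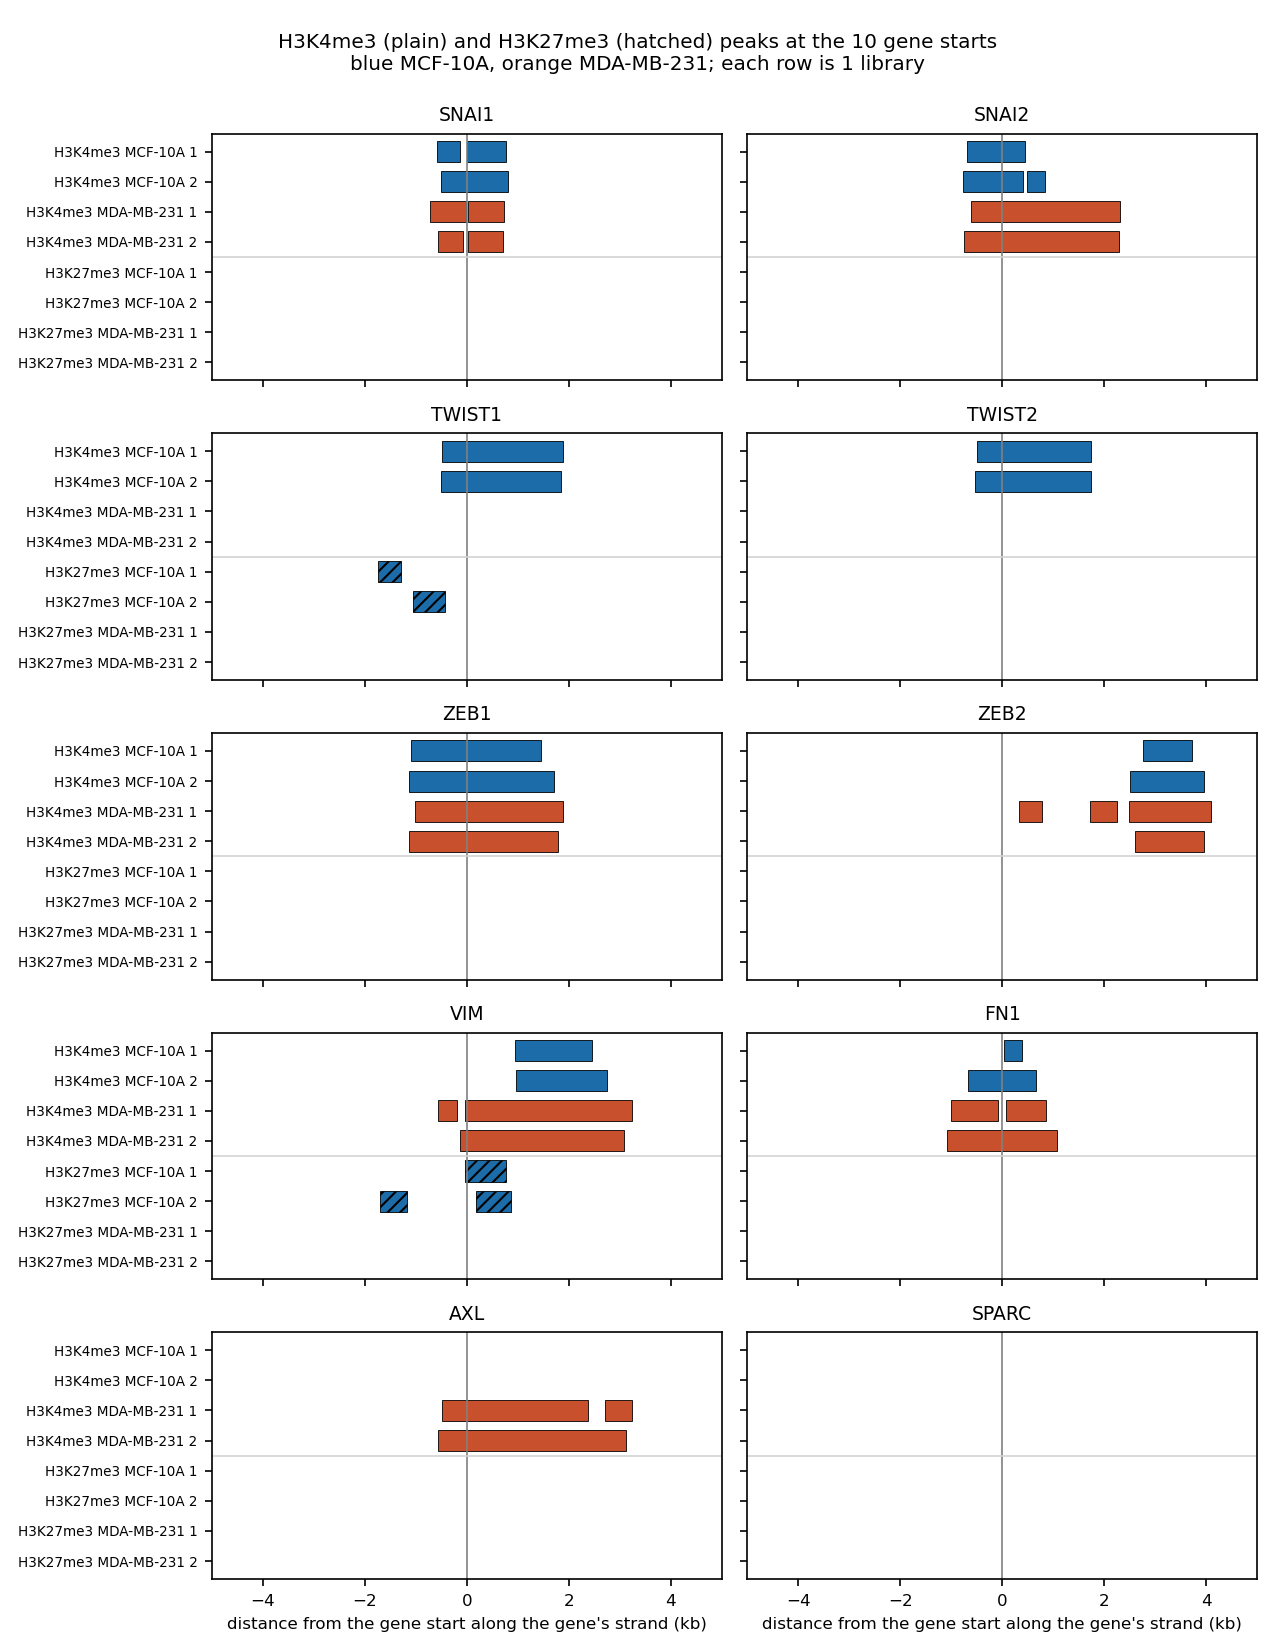
Peaks within 5 kb of the 10 gene starts, with the distance from the start along the gene's strand in kb on the horizontal axis and 1 row per library (plain bars for H3K4me3, hatched bars for H3K27me3). AXL is marked in MDA-MB-231 only, TWIST1 and TWIST2 in MCF-10A only, and hatched bars appear only at TWIST1 and VIM in MCF-10A; H3K9me2 had no peak in these windows and is not drawn.

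SNAI1, a zinc finger repressor of E-cadherin, carried H3K4me3 in both lines, with covered bp that overlapped between them. Its start is at position 48599513 of chromosome 20, on the plus strand. Peaks covered 1220 and 1311 bp of the window in MCF-10A and 1413 and 1176 bp in MDA-MB-231, so the lines overlapped. In 3 of the 4 libraries the mark was called as 2 peaks that flanked the start with a gap, and in MCF-10A replicate 2 it was a single peak of 1311 bp across the start. The largest score of the gene in each MCF-10A list stood at percentile 36.2 and 46.3 of that list, and in MDA-MB-231 at 22.1 and 17.7. No H3K27me3 peak lay within 413137 bp of the SNAI1 start, and no H3K9me2 peak within 362762 bp, in any library.

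SNAI2, which encodes the related repressor SLUG, had a wider H3K4me3 domain in MDA-MB-231. Its start is at position 49833999 of chromosome 8, on the minus strand. Covered bp were 1144 and 1519 in MCF-10A and 2931 and 3051 in MDA-MB-231, which did not overlap. The means were 1331.5 ± 265 and 2991 ± 84.9 bp (SD, n = 2), a ratio of 2.25. The added width lay inside the gene's transcribed side. The MDA-MB-231 peaks ran to 2313 and 2297 bp downstream of the start, and the MCF-10A peaks across the start ended 446 and 405 bp downstream, with a second small peak in replicate 2 that reached 843 bp. The upstream ends lay 617 to 766 bp before the start in all 4 libraries. Both MDA-MB-231 peaks were among the widest of their lists, at width percentiles 97.5 and 98.0, while their scores stood near the middle at percentiles 51.8 and 46.4.

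TWIST1 and TWIST2, basic helix-loop-helix factors of mesoderm and neural crest, carried broad H3K4me3 peaks across their starts in MCF-10A and none in MDA-MB-231. TWIST1 starts at position 19157295 of chromosome 7, on the minus strand. Its window held 2361 and 2354 covered bp in MCF-10A and none in MDA-MB-231. TWIST2 starts at position 239756673 of chromosome 2, on the plus strand, with 2232 and 2271 covered bp in MCF-10A and 0 in both MDA-MB-231 libraries. These 4 peaks were alike in shape. They began 485 to 524 bp upstream of the start and ended 1741 to 1875 bp downstream. They were also among the stronger peaks of the MCF-10A lists, with score percentiles of 94.2 and 84.9 for TWIST1 and 73.7 and 99.8 for TWIST2, and width percentiles of 91.3 to 93.9. Both TWIST1 peaks had the score of 3100, held by 1422 peaks of the replicate 1 list and 4498 of the replicate 2 list. Their score percentiles are thus those of a tie and do not rank TWIST1 against TWIST2. MDA-MB-231 had no H3K4me3 peak within 50 kb of either start.

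ZEB1 and ZEB2 are zinc finger homeobox repressors. ZEB1 had a broad H3K4me3 peak across its start in both lines. It starts at position 31608101 of chromosome 10, on the plus strand, with 2555 and 2829 covered bp in MCF-10A and 2900 and 2925 bp in MDA-MB-231. The lines did not overlap, but the ratio of means was 1.08. All 4 peaks held the start and stood at width percentiles 96.1 to 97.5. ZEB2 starts at position 145277958 of chromosome 2, on the minus strand, and its start lay outside every H3K4me3 peak. Its main peak lay downstream, between 2488 and 4101 bp from the start over the 4 libraries, with 956 and 1440 bp in MCF-10A and 1614 and 1347 bp in MDA-MB-231. Replicate 1 of MDA-MB-231 alone had a further pair of small peaks closer to the start, of 522 and 458 bp, with scores at percentiles 1.12 and 2.9 of its list. Over the whole ZEB2 window the lines overlapped, at 956 and 1440 against 2594 and 1347 bp.

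VIM, which encodes the intermediate filament vimentin, had H3K4me3 in all 4 libraries, but over the start used here only in MDA-MB-231. The RefSeq promoters used held 1 start for VIM. Whether another annotated start lies under the MCF-10A peaks was not checked. Its start is at position 17270258 of chromosome 10, on the plus strand. In MCF-10A the peaks began 939 and 963 bp downstream of the start and were 1510 and 1776 bp wide. In MDA-MB-231 they began 34 and 130 bp upstream of the start and were 3280 and 3207 bp wide, and replicate 1 had a further small peak of 372 bp upstream. Covered bp were 1510 and 1776 against 3652 and 3207, a ratio of means of 2.09 without overlap of the lines. The main peaks stood at score percentiles 26.7 and 36.2 in the MCF-10A lists and 95.1 and 92.2 in the MDA-MB-231 lists, where their score of 3100 is shared by many peaks.

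FN1, the gene of the matrix glycoprotein fibronectin, starts at position 216300895 of chromosome 2, on the minus strand. Its H3K4me3 cover was 356 and 1329 bp in MCF-10A and 1707 and 2165 bp in MDA-MB-231. The groups did not overlap, but the MCF-10A replicates differed by more than the gap between the lines. MCF-10A replicate 1 had only a weak peak of 356 bp, at score percentile 3.64 of its list, that did not reach the start. MCF-10A replicate 2 had a peak of 1329 bp across it at percentile 21.3. In MDA-MB-231 the score percentiles were 49.1 and 31.4 for the 2 peaks of replicate 1, which flanked the start, and 54.2 for the single peak of replicate 2, which held it.

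**Figure D2:**
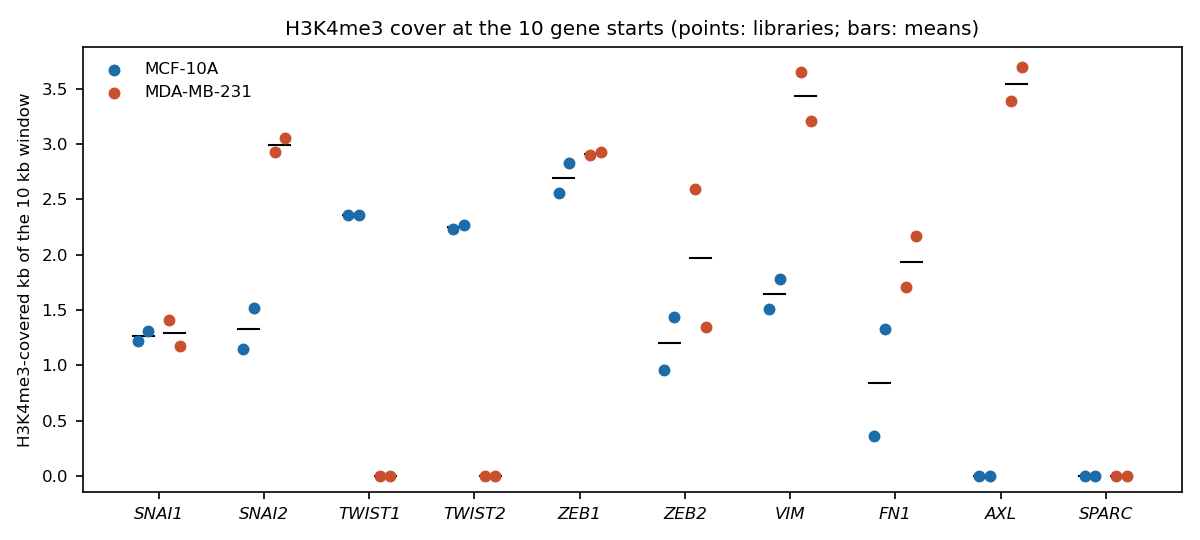
H3K4me3-covered kb of the 10 kb window at each gene, with 1 point per library and a bar at the mean of each line (n = 2). AXL, TWIST1 and TWIST2 are at 0 in 1 line, SNAI2 and VIM lie higher in MDA-MB-231 without overlap, and SNAI1 and ZEB2 overlap between the lines.

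AXL, a receptor tyrosine kinase for the ligand GAS6, had H3K4me3 across its start in MDA-MB-231 and none in its window in MCF-10A. Its start is at position 41725108 of chromosome 19, on the plus strand. The window was at 0 in both MCF-10A libraries and held 3384 and 3692 covered bp in MDA-MB-231 (3538 ± 218 bp, SD, n = 2). The MDA-MB-231 peaks ran from 488 and 572 bp upstream of the start to 2368 and 3119 bp downstream, and replicate 1 had a further peak of 527 bp beyond. The peaks across the start stood at width percentiles 97.1 and 99.2.

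MCF-10A was not without H3K4me3 at the AXL locus. Just outside the window it had a peak 6841 to 7725 bp downstream of the start in replicate 1 (885 bp) and 6749 to 7729 bp downstream in replicate 2 (981 bp). No MDA-MB-231 peak lay there. RefSeq on GRCh38 gives AXL a downstream start 7532 bp from the upstream one. If that distance holds on hg19, which was not checked here, the downstream start falls inside both MCF-10A peaks. The lines thus had H3K4me3 at different places of the same gene, MDA-MB-231 over the upstream start, with its 4 CpGs, and MCF-10A about where the downstream start, with its 13 CpGs, is annotated. With windows of 10 kb on either side AXL counted as marked in all 4 libraries.

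**Figure D3:**
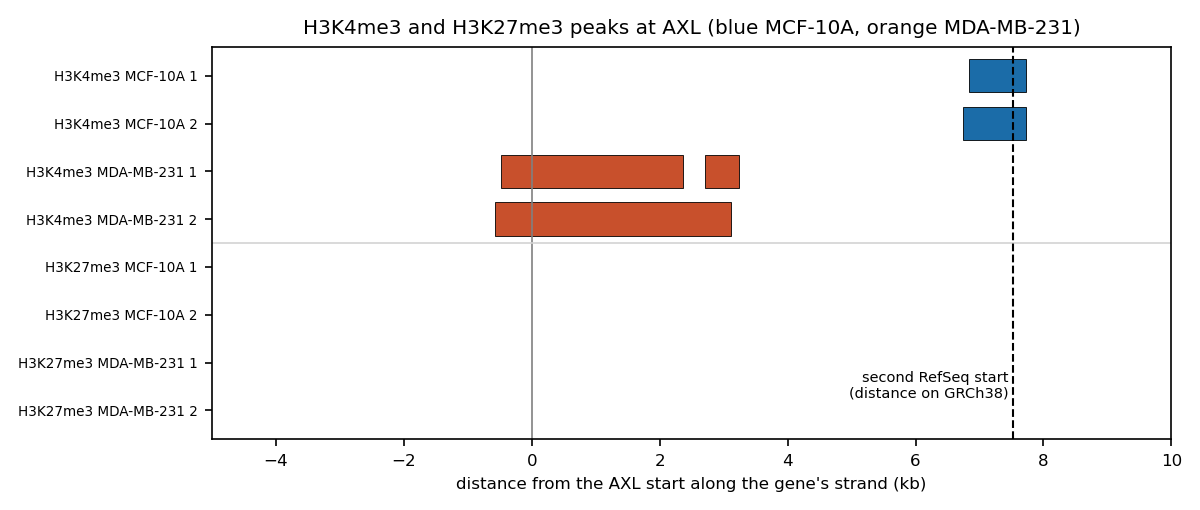
H3K4me3 and H3K27me3 peaks from 5 kb before to 10 kb after the AXL start, with the distance along the gene's strand in kb on the horizontal axis and 1 row per library. Orange MDA-MB-231 peaks cover the start, blue MCF-10A peaks lie 6749 to 7729 bp downstream, and the dashed line marks the 7532 bp that RefSeq gives on GRCh38 to the downstream start; no H3K27me3 peak lies in this stretch.

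SPARC, a secreted matrix-associated glycoprotein, starts at position 151066726 of chromosome 5, on the minus strand, and was the 1 gene of the 10 without a peak of any mark in its window. The nearest H3K4me3 peak was 70551 to 70784 bp away in all 4 libraries. No library of either line thus had a called H3K4me3 peak at the SPARC start.

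The breadth of H3K4me3 was then tested over the genome with limma, on log2 of the covered bp per merged region plus 100 bp, with Benjamini-Hochberg adjustment. Of 15780 regions tested, 10% were called wider in MDA-MB-231 and 8.66% narrower. Among the 12367 regions with a peak in all 4 libraries, which include 1 region each at SNAI1, SNAI2, ZEB1, ZEB2, VIM and FN1, the shares were 3.61% and 2.43%. Under this adjustment SNAI2 and VIM were called wider, 2 of these 6, and none was called narrower. The adjustment ran over all 15780 regions and called 1578 wider and 1366 narrower. Of these, 447 and 300 had a peak in all 4 libraries. The other calls include regions that entered through 1 line only, such as those of AXL, TWIST1 and TWIST2. Such calls lower the adjusted p of the rest. The empirical Bayes variance was also estimated over all 15780 regions, so the SE and p of SNAI2 and VIM draw on those regions too. Whether SNAI2 and VIM pass a fit and adjustment over the 12367 regions alone was not tested. The log2 ratio, MDA-MB-231 over MCF-10A, was 1.12 at SNAI2 (SE 0.152, limma adjusted p = 0.0168) and 0.94 at VIM (SE 0.0966, limma adjusted p = 0.00705). With each of the 4 libraries left out in turn, limma adjusted p was at most 0.0418 for both, but each of these fits has 1 line with a single library, which is assumed to vary like the other line and like other regions. FN1 had the largest ratio, 1.33, but with an SE of 0.629 it did not pass (limma adjusted p = 0.282). The ratio was 2.15 without MCF-10A replicate 2 (limma adjusted p = 0.00204) and 0.50 without MCF-10A replicate 1 (limma adjusted p = 0.193). Either fit removes the spread between the MCF-10A libraries, so the smaller p gives FN1 no support. The ratios were 0.03 at SNAI1 (SE 0.126), 0.11 at ZEB1 (SE 0.07) and 0.30 at ZEB2 (SE 0.234), with limma adjusted p of 0.931, 0.393 and 0.473. The regions of AXL, TWIST1 and TWIST2 entered this test only through the line that had them, so no p is given for them.

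By window, the covered bp of the lines did not overlap at 7 of the 10 genes. SNAI2, ZEB1, VIM, FN1 and AXL were higher in MDA-MB-231 and TWIST1 and TWIST2 lower. Of the windows centred on H3K4me3 regions, which all hold a peak, 30.8% were higher in MDA-MB-231 without overlap and 22.3% lower. A lack of overlap alone is thus common. The two-sided exact permutation test of 2 against 2 libraries cannot give less than p = 0.333, which these 7 genes gave.

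H3K27me3 was found at 2 of the 10 starts, TWIST1 and VIM, in both MCF-10A libraries and in neither MDA-MB-231 library. Leaving out the short MDA-MB-231 list could not change this, since neither MDA-MB-231 list had a peak in these windows. With a score of at least 100, or with lists of equal length, neither gene kept the pattern. Of the windows centred on H3K4me3 regions, 4.45% had H3K27me3 in this pattern and 0.947% had the reverse, which no member showed. At VIM, MCF-10A replicate 1 had a peak from 40 bp upstream to 764 bp downstream of the start, and replicate 2 had one from 187 to 866 bp downstream and a further peak 1697 to 1185 bp upstream. The start itself was inside a peak in replicate 1 only. The peaks near the start had scores of 88.64 and 87.63, at percentiles 67.2 and 67.0 of their lists.

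At VIM the repressive and the active mark lay side by side in MCF-10A. The H3K27me3 peaks at the start ended 72 to 198 bp before the H3K4me3 peaks of the same line began, and no base was covered by both. In MDA-MB-231 the same bases were under H3K4me3. The MDA-MB-231 H3K4me3 peaks covered 799 and 805 of the 805 bp of the replicate 1 H3K27me3 peak and all 680 bp of the replicate 2 peak at the start.

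At TWIST1 the H3K27me3 peaks of the MCF-10A replicates did not overlap each other. They lay 1752 to 1286 bp upstream of the start in replicate 1 and 1058 to 422 bp upstream in replicate 2. Both were weak, with scores of 52.98 and 52.14 at percentiles 11.9 and 9.22. The replicate 2 peak overlapped the H3K4me3 peaks of MCF-10A by 64 and 96 bp, and the replicate 1 peak stood 768 and 800 bp away from them. All 5 H3K27me3 peaks at these genes scored under 100, and none remained with that score as the minimum or with lists of equal length. MDA-MB-231 replicate 2, whose list was the longest of the mark, had no H3K27me3 peak within 659357 bp of VIM or 2673355 bp of TWIST1.

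No H3K9me2 peak lay in any of the 10 windows in any of the 4 libraries. In the background windows 6.74% had an H3K9me2 peak in at least 1 library, and the members' 0 of 10 is close to that share.

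Repressive peaks were then listed within 50 kb of each start, those inside 5 kb included, a distance chosen after the values were seen. H3K27me3 was present in both MCF-10A and neither MDA-MB-231 library around SNAI2, TWIST1, VIM and AXL, 4 of the 10 genes. SNAI2 and AXL were added by the wider distance, which held no further H3K27me3 peak at TWIST1. Of the windows of the same size centred on H3K4me3 regions 9.66% had this pattern. The wider count was not repeated with a score of at least 100 or with lists of equal length, settings that left no gene in the pattern at 5 kb. The part of weak peaks and of list length in it was thus not tested. Around SNAI2 the cover was 3948 and 5382 bp in MCF-10A, in 4 and 8 peaks, and 0 in both MDA-MB-231 libraries. The closest of these peaks lay just outside the 5 kb limit, 5844 bp upstream in replicate 2. Around AXL it was 3019 and 4554 bp in MCF-10A, in 2 and 5 peaks, and 0 in MDA-MB-231, with the nearest peaks 19955 and 15739 bp from the start. SPARC went the other way, with 663 and 1798 bp in MDA-MB-231 and 0 in MCF-10A. TWIST2 had 1 peak of 479 bp in MCF-10A replicate 2, 14850 bp from the start. In MCF-10A replicate 1 its nearest peak was 50077 bp away, just beyond the chosen distance.

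H3K9me2 was present within 50 kb in both MCF-10A and neither MDA-MB-231 library around SNAI2, TWIST1, TWIST2 and AXL, also 4 of 10, against 11.6% of the background windows. Each of these genes had 1 peak per MCF-10A library, of 1084 to 2080 bp, and the peaks lay at nearly the same distance in both replicates, such as 26905 and 26901 bp at TWIST1 and 32735 and 32590 bp at TWIST2. ZEB1 had such a peak in both MCF-10A libraries and in MDA-MB-231 replicate 2. SPARC had 1 peak, of 2130 bp, in MCF-10A replicate 1 only. The MCF-10A lists of H3K9me2 are longer than those of MDA-MB-231, and the part of list length in these counts was not tested.

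**Figure D4:**
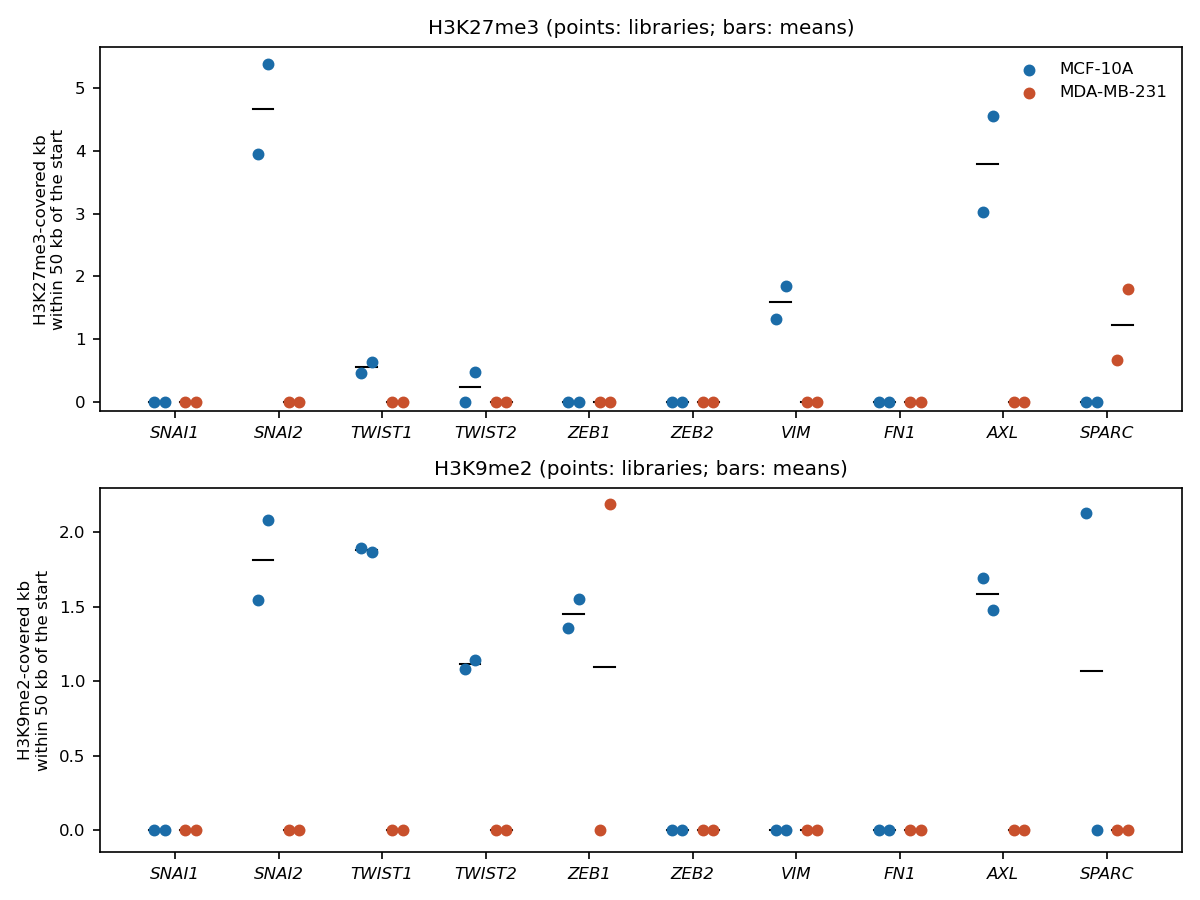
Kb covered by H3K27me3 (upper panel) and H3K9me2 (lower panel) within 50 kb of each gene start, with 1 point per library and a bar at the mean of each line (n = 2). Most points above 0 are MCF-10A libraries, with the largest H3K27me3 cover around SNAI2 and AXL, while SPARC has H3K27me3 in MDA-MB-231 only.

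By the presence or absence of a peak in each of the 12 libraries, SNAI1, SNAI2, ZEB1, ZEB2 and FN1 matched one another in all 12. VIM matched them in 10, and differed by the H3K27me3 of MCF-10A. TWIST1 and TWIST2 matched each other in 10 of 12, and TWIST1 also matched VIM in 10. This value was common, since TWIST2 and AXL each matched SNAI1, SNAI2, ZEB1, ZEB2, FN1 and SPARC in 10 as well. The lowest likeness was 6 of 12, between TWIST1 and AXL and between VIM and SPARC. The libraries of H3K9me2 and of MDA-MB-231 H3K27me3 had no peak at any member, so their calls match in every pair.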

How the data were processed

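H3K4me3, H3K27me3 and H3K9me2 were mapped by ChIP-seq in 2 cell lines with 2 replicates each. The authors deposited 1 peak list per replicate, with the chromosome, start, end and a score for each peak. These scores were computed by the authors, on a scale that no label states. Tools listed in the submitters' processing notes are MACS 1.4, Bowtie2, bedtools and CASAVA 1.6, with the build hg19 and no settings. No source used here says what role the inputs had in peak calling.

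Samples were grouped by line and mark from their titles. The members and lists were chosen with earlier results of these data known. The rule for named genes was to name all 10. Only chromosomes 1 to 22 and X were used. A window counted as marked from 1 bp of overlap with a peak. Overlapping peaks of each mark were merged into regions, and covered bp were tested with limma (trend, empirical Bayes, adjusted p threshold 0.05) on regions covered in at least 2 of 4 libraries, over the whole genome. The same fit for the other marks was run, but the tested H3K27me3 region of a member, at VIM, had peaks in 1 line only and no member had an H3K9me2 region, so their p-values are not used. Interval steps and the fit were tested on simulated data. For H3K27me3 the fit recovered none of the differences put into those data, a further reason to leave its p-values out. Alternatives were other window sizes, score minimum, list length, overlap, pseudocount, scaling, filter, merging, replicate block and each library left out. No hg19 annotation was used here, so exons, introns, UTRs, other genes of the programme and cell type markers were not analysed here. Tools were Python 3.11.15, NumPy 2.4.6, SciPy 1.17.1, pandas 2.3.3, matplotlib 3.10.9, R 4.3.3 and limma 3.58.1.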

Additional observations from a re-analysis of the deposited data

How the results depend on the processing

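ZEB2 left the genes marked with H3K4me3 in all 4 libraries with windows of 2 kb on either side, and FN1 with a score of at least 100 and with at least 500 bp covered (5 genes each). AXL left the class marked in MDA-MB-231 only with windows of 10 kb on either side, where that class held 0 genes. The count of genes with H3K27me3 in both MCF-10A libraries only, 2 in the report, was 0 with a score of at least 100, 0 with lists of equal length, 1 with at least 500 bp covered (VIM) and 4 within 50 kb. Within 50 kb, a distance chosen after seeing the data, 1 gene (SPARC) had H3K27me3 in MDA-MB-231 only and 4 had H3K9me2 in MCF-10A only. The log2 ratio at SNAI1, which passed no test, was -0.02 after scaling to total covered bp, and -0.10 to 0.15 with 1 library left out (-0.02 without MCF-10A replicate 1, -0.10 without MDA-MB-231 replicate 1). Over the genome, limma called 1578 H3K4me3 regions wider in MDA-MB-231, and 124 to 1975 with 1 library left out, and 1366 narrower, with 152 to 906. The lowest counts were 124 without MDA-MB-231 replicate 1 and 152 without MCF-10A replicate 1. For H3K27me3 it called 1988 wider and 7456 narrower, 203 and 2824 with a score of at least 100, and 0 to 31 and 0 to 10264 with 1 library left out, and these calls are not used. The breadth of H3K9me2 was fitted under the same alternatives, but no member had a region and its calls are not used. Replicate numbers do not pair the samples by their labels, and deviations of same-numbered libraries correlated at 0.164 for H3K4me3. With the replicate number as a block, 1401 H3K4me3 regions were wider and 1236 narrower, and SNAI2 and VIM still passed (limma adjusted p = 0.0127 and 0.0126). In every fit the variance estimate and the adjustment included regions with peaks in 1 line only, and none was run without them. Over the 6 member regions with H3K4me3 in all 4 libraries, 62 of 66 values under alternatives kept their direction and side of the threshold, and the others were the 3 at SNAI1 and FN1 without MCF-10A replicate 2. Fits without 1 library leave 1 line with a single library, which is assumed to vary like the rest. Regions with peaks in 1 line only are not counted, since the filter fixes their direction. Peak depth is unknown, so a missing peak is not an absent mark.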
